A study of Mus musculus with 36 samples.

Results

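Mature osteoclasts were compared with the macrophages from which they had been grown, over the whole span of the culture. The comparison rested on 6 of the 36 libraries of the series, 3 of gWT cells at day 6 and 3 of gWT cells at day 0. Genes were kept where at least 3 of these 6 libraries had an RPKM (reads scaled to gene length and library size) of 1 or more, which held for 10866 of the 24950 genes listed. The other 14084 genes were not tested. All cells were of the C57BL/6 mouse strain and of the labelled genotype Irf8_gWT, the wild type of a pair in which Irf8, a transcription factor of the monocyte lineage, is the targeted gene; the labels do not spell out the prefix g. Day 0 cells were bone marrow-derived macrophages (BMMs) in the growth factor M-CSF, with the tissue label of bone marrow derived monocytes. Day 3 cells (pre-osteoclasts) and day 6 cells (osteoclasts) were given RANKL at 40 ng/ml together with M-CSF at 20 ng/ml. The libraries labelled gKO (Irf8_gKO), 3 at day 0 and 3 at day 6, had the same strain and cytokines and served as the second genotype. Mice of both sexes were used, per the series' design text. The sources used here do not give age, sex per library or pooling of mice. They do not say whether replicate libraries stem from separate mice or cultures, so p-values measure the spread between libraries, which may be technical.

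Osteoclasts are the multinucleated cells that resorb bone. They form when M-CSF keeps myeloid precursors alive and RANKL, through its receptor RANK, switches on NF-kB, AP-1 and then NFATc1, the factor that drives the osteoclast genes. Precursors fuse, attach to bone by an actin ring called the sealing zone, pump protons into the space beneath and release cathepsin K and other enzymes into it, a costly activity that draws on many mitochondria.

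The labels were checked against markers of both cell types. All 9 osteoclast markers rose, by 5.18 to 7.99 on the log2(RPKM + 1) scale. Of these, Calcr and Oscar were under 1 RPKM in every day 0 library. They passed the filter through day 6 alone and had to differ. All 7 macrophage markers fell, with net changes of -4.93 to -0.73. The smallest of these falls was that of Csf1r, the M-CSF receptor, which osteoclasts also need and which stayed at a mean of 514 RPKM at day 6 against 851 at day 0. Libraries held 34510144 to 46181492 alignments. If RPKM were divided by those totals, an RPKM of 1 would stand for 34.5 to 46.2 reads per kilobase. Libraries of the same group correlated at r = 0.995 to 0.998 across the genes tested, a correlation over genes and not over independent replicates. The day 0 libraries also carried genes of a neutrophil list, which holds granule proteins, receptors and transcription factors. Of 26 in the table, 22 passed the filter and all 22 fell. The summed level of the 26 genes ran from 2239 to 2928 RPKM at day 0 and from 96.7 to 119 RPKM at day 6. Its largest parts at day 0 were S100a8 (565 to 790 RPKM) and S100a9 (676 to 904 RPKM), the latter also a gene of monocytes. In bulk RNA, fewer cells of a type and less RNA per cell cannot be told apart.

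Between day 0 and day 6 the limma test (adjusted p under 0.05, Benjamini-Hochberg over the 10866 genes) called 9151 genes, or 84.2%. Of the genes tested, 4112 rose (37.8%) and 5039 fell (46.4%), and the libraries of both days did not overlap for 9197 genes (84.6%). With so large a share called, the size of a change says more than the call, so changes of at least 2-fold were counted as well: 1352 genes rose by that much (12.4%) and 1543 fell by that much (14.2%). The median net change of all genes tested was -0.08. Of the 10866 genes, 990 had 1 RPKM or more in every library of 1 day and in none of the other; such genes passed the filter through 1 day alone and had to differ, so their number is given for each list that holds any. Net changes are given as log2(RPKM + 1) at day 6 minus day 0 with the limma standard error, a scale that understates the change of genes with low RPKM.

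**Figure D1:**
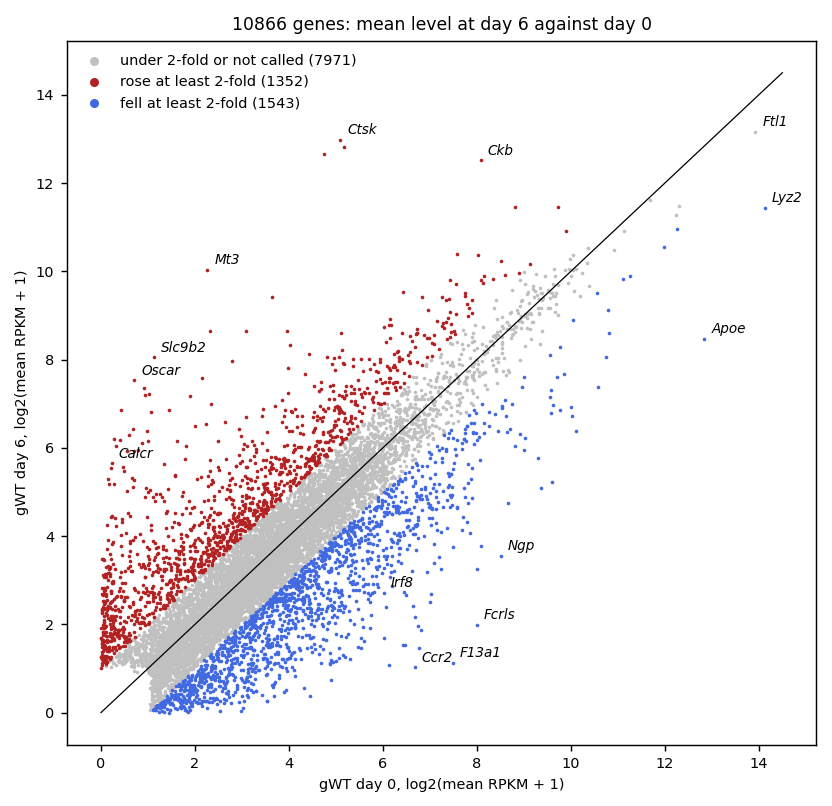
Each point is 1 of the 10866 genes tested, placed by its mean level over 3 gWT libraries at day 0 (horizontal axis) and day 6 (vertical axis), both as log2(mean RPKM + 1); red points rose and blue points fell at least 2-fold, grey points did neither, and the line marks equal levels. Ctsk, Mt3 and Oscar lie far above the line, F13a1, Fcrls and Ccr2 far below it, and Ftl1 close to it at the upper end.

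The list of the most abundant messages was rewritten. Ctsk, which encodes cathepsin K, the protease that cleaves bone collagen, measured 22.01, 51.0 and 25.9 RPKM in the day 0 libraries and 7899.8, 8023 and 8292 RPKM at day 6. Acp5, the tartrate-resistant acid phosphatase used to stain osteoclasts, went from 19.3, 36.1 and 21.7 to 6137, 6458 and 6812 RPKM. Mmp9, a matrix metalloproteinase, went from 28.3, 47.8 and 29.1 to 6990.3, 7599.7 and 7014 RPKM. In each case the lowest day 6 library lay more than 100-fold above the highest day 0 library, and day 0 replicate 2 was the highest of its group. Ckb, the brain-type creatine kinase, was already present at day 0 (245, 289.9 and 273 RPKM) and reached 5766, 6167 and 5709.9 RPKM. Together these 4 genes took 0.0795% to 0.1001% of the summed RPKM of a day 0 library, 1.07% to 1.596% at day 3 and 6.67% to 6.98% at day 6. The lysozyme gene Lyz2, the apolipoprotein gene Apoe and the lysosomal genes Psap and Ctsd together moved the other way, from 8.01% to 8.54% of the summed RPKM at day 0 to 1.59% to 1.68% at day 6.

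At day 0 the 10 named genes of highest level were Lyz2, Ftl1, Apoe, Tmsb4x, Ctsd, Fth1, Psap, Eef1a1, B2m and Actb. At day 6 they were Ftl1, Ctsk, Mmp9, Acp5, Ckb, Eef1a1, Tmsb4x, Atp6v0c-ps2, Vim and Lyz2. Ftl1, the ferritin light chain, fell by 0.76 ± 0.09 (adjusted p = 3.84e-07, limma), but its change was 0.36 when libraries were quantile scaled. Eef1a1, a translation elongation factor, had a net change of -0.07 ± 0.06 and did not pass the test, and its change too turned positive with quantile scaling, at 0.39. Atp6v0c-ps2 is a pseudogene copy of the proton pump gene Atp6v0c, so reads may have been split between both, and Ftl1 also has near-identical copies. Vim, the intermediate filament vimentin, rose from 834, 837 and 852 to 2835, 2872 and 2739.6 RPKM.

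The 15 largest rises, by the rule for named genes, were those of Ctsk (7.99 ± 0.24), Acp5 (7.97 ± 0.21), Mt3, Mmp9, Slc9b2, Oscar, Ocstamp, Akr1c18, Dcstamp, Car2, Myo1d, Tspan7, Atp6v0d2, Rufy4 and Cd200 (5.74 ± 0.09). Most are known osteoclast genes; Mt3, a metallothionein that binds zinc, Akr1c18, a progesterone-degrading aldo-keto reductase, and Cd200, a surface ligand of an inhibitory myeloid receptor, are known mainly from other settings. Mt3 measured 2.16, 5.67 and 3.49 RPKM at day 0 and 1026, 1063 and 1058 RPKM at day 6. Akr1c18 went from 0.226, 0.438 and 0.357 to 117, 106 and 121 RPKM, and Cd200 from 0.449, 0.657 and 0.687 to 86.3, 81.2 and 85.5 RPKM. The day 6 libraries of each lay close together, and the groups do not overlap, as the rule for named genes requires. Of the 15, Oscar, Akr1c18, Tspan7, Rufy4 and Cd200 were under 1 RPKM in every day 0 library. They passed the filter through day 6 alone and had to differ.

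The 15 largest falls were those of F13a1, Fcrls, Ccr2, Camp, Ms4a4c, Ngp, Siglec1, Fcgr1, Rnase4, Ly6c2, Ly86, Ltf, Mmp8, Apoe and Ctla2b. F13a1, the A chain of coagulation factor XIII and a product of monocytes and macrophages, measured 201, 163 and 170.3 RPKM at day 0 and 1.08, 1.53 and 0.939 RPKM at day 6, a net change of -6.36 ± 0.12 (adjusted p = 5.87e-18, limma). Fcrls, a scavenger receptor-like gene of mouse macrophages, went from 249, 246 and 265 to 2.70, 3.14 and 3.09 RPKM. Ccr2, the chemokine receptor that brings monocytes out of the marrow, went from 102, 107 and 94.0 to 1.16, 1.13 and 0.837 RPKM. Each was high in all 3 day 0 libraries and near 1 to 3 RPKM in all 3 day 6 libraries. Camp, Ngp, Ltf and Mmp8 are neutrophil granule genes and belong to the list whose summed level is given above; its part in these falls was not tested.

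**Figure D2:**
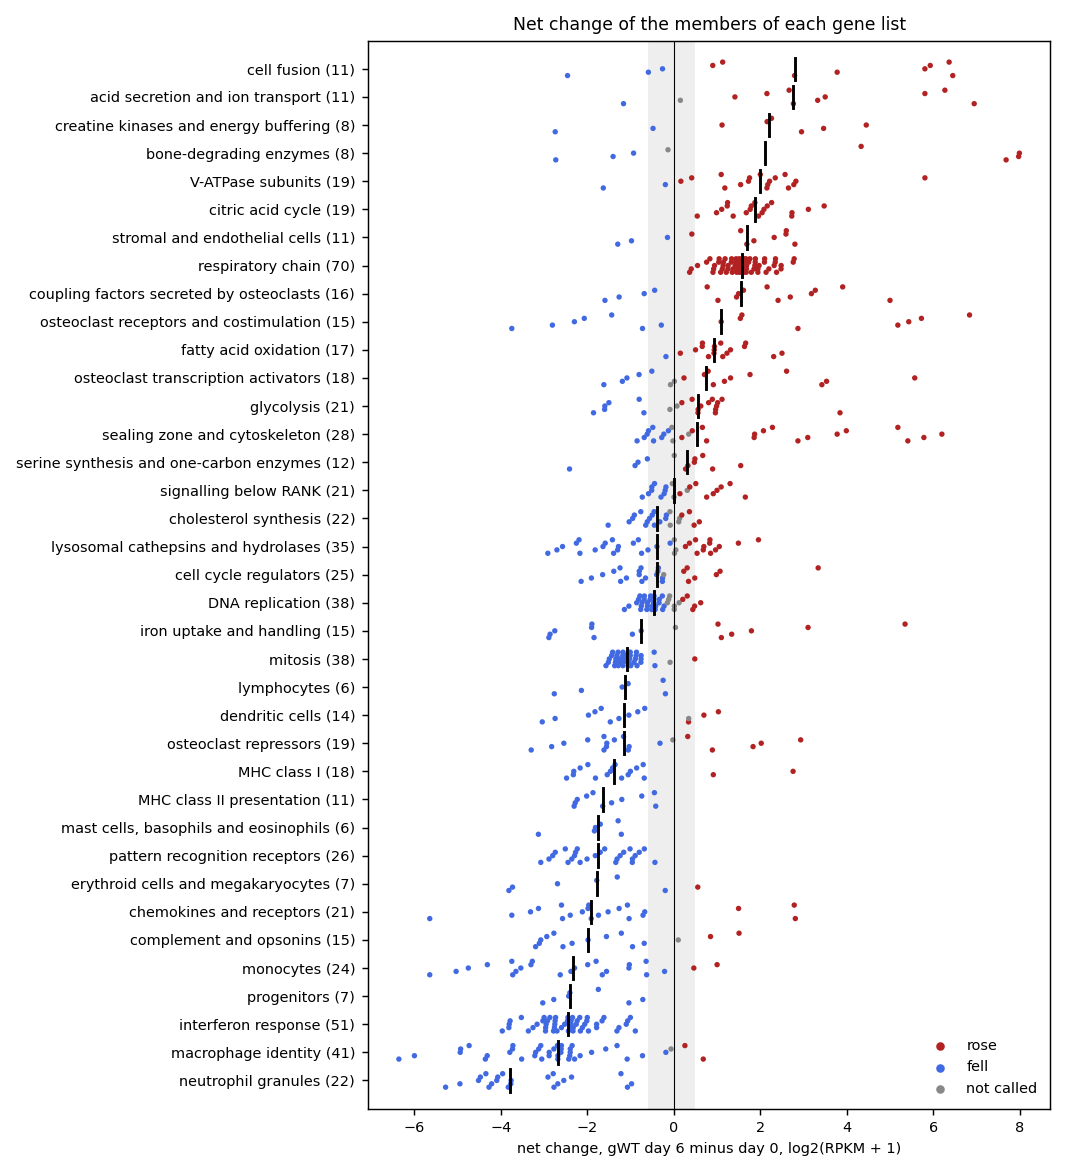
Each point is a gene of 1 of 37 lists (genes tested in brackets), placed by its net change in gWT on the log2(RPKM + 1) scale, red where it rose, blue where it fell and grey where it was not called; black bars are list medians and the grey band is the interquartile range of all genes tested. All respiratory chain genes lie right of 0, all interferon response genes lie left of it, and the lysosomal list straddles it.

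Genes were then read by role, in lists described by counts and medians and not tested as lists. The counts are to be read beside the 37.8% of all genes tested that rose and the 46.4% that fell. Among enzymes that break down bone matrix, 8 of 11 listed genes passed the filter, 4 rose and 3 fell. Beside Ctsk, Acp5 and Mmp9, Mmp14, a membrane-bound metalloproteinase, rose from 13.3, 18.7 and 13.3 to 314, 325 and 319 RPKM. Mmp13, a collagenase, fell from 13.4, 18.8 and 20.0 to 1.91, 1.56 and 1.75 RPKM, and Mmp12, the macrophage elastase, was not called (60.9 against 54.1 RPKM). Adam8, a membrane protease that promotes fusion, fell by 1.41 ± 0.06 over the whole culture, yet it stood at 434 RPKM at day 3 against 161 at day 0 and 59.8 at day 6. The remaining gene that fell was Mmp19 (-0.93 ± 0.04).

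Genes of acid secretion rose with few exceptions. Of 12 genes, 11 passed the filter, 9 rose, all at least 2-fold, and 1 fell, with a median net change of 2.76. Car2, carbonic anhydrase II, which supplies the protons, measured 0.695, 1.15 and 0.929 RPKM at day 0 and 144, 148 and 147 RPKM at day 6. Slc9b2, a sodium/proton exchanger, went from 0.965, 1.68 and 0.895 to 269, 262 and 261 RPKM. The chloride-proton exchanger Clcn7 rose from 33.98, 35.6 and 34.2 to 237, 246 and 239 RPKM, and its partner Ostm1 from a mean of 28.5 to 77.3 RPKM. The bicarbonate exchanger Slc4a2 rose by 3.32 ± 0.08 and the sorting nexin Snx10, mutated in human osteopetrosis, by 3.50 ± 0.08. The listed gene that fell was Atp2b1, a plasma membrane calcium pump (62.1 to 27.1 RPKM).

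The proton pump itself, the V-ATPase, showed a change of isoforms. Of 25 subunit genes, 19 passed the filter, 17 rose and 2 fell, with a median of 1.996; together all 25 took 0.520% to 0.529% of the summed RPKM at day 0 and 2.23% to 2.25% at day 6. Tcirg1, the a3 subunit found in the ruffled border of osteoclasts, rose from 143, 156 and 158 to 667, 694 and 674 RPKM. Atp6v0a1, the a1 subunit of other cells, fell from 44.3, 41.8 and 45.0 to 12.8, 13.7 and 13.7 RPKM. The day 0 and day 6 libraries did not overlap for either gene, and the pair moved in opposite directions. The d subunits both rose, by different amounts: Atp6v0d2, the osteoclast form, went from 8.36, 13.7 and 12.4 to 689, 657 and 708 RPKM, while Atp6v0d1, the common form, went from a mean of 103 to 137 RPKM. The 6 subunit genes below the filter, among them the kidney forms Atp6v1b1 and Atp6v0a4, were all under 0.1 RPKM on average on both days.

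The lysosomal list did not rise as a whole with the pump. All 35 listed lysosomal genes passed the filter, 1 through 1 day alone, 13 rose and 19 fell. Rises of at least 2-fold numbered 3 and falls of that size 13, and the median was -0.39. Of all genes tested, 37.8% rose and 46.4% fell, 12.4% and 14.2% by at least 2-fold. The count of lysosomal genes that rose was thus near the share over all genes. Most of the proteases fell: legumain (Lgmn) from 862, 877 and 889.9 to 109, 117 and 119.9 RPKM, cathepsin S (Ctss) from 1673, 1975 and 1720.0 to 381, 404 and 383 RPKM, and cathepsin B (Ctsb) from 2166, 2275 and 2226 to 897, 915 and 924 RPKM. The membrane proteins Lamp1 (-2.174 ± 0.06) and Scarb2 (-2.26 ± 0.05) fell as well. By contrast, the glycan hydrolases Hexa (522 to 842 RPKM) and Naglu (38.4 to 80.5 RPKM), and the membrane tetraspanin Cd63 (323 to 907 RPKM), rose. Ctsz was the cathepsin of highest level among those of this list that rose, at 431 RPKM at day 0 and 762 RPKM at day 6.

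Promoters were searched for the palindrome TCACGTGA, the core of the CLEAR element bound by the lysosomal factors TFEB and TFE3, because both lists above include known targets of these factors. It lay in the RefSeq promoter window, 250 bases before to 50 bases after a start, of 3 of 13 V-ATPase genes with a window (23.1%) and of 4 of 26 lysosomal genes (15.4%), against 203 of 8632 genes tested (2.35%). It lay in 15 of 1039 genes that rose at least 2-fold (1.44%) and in 17 of 1196 that fell by as much (1.42%). The letters of another element, the interferon-linked ISRE described further on, lay in as many V-ATPase windows (3 of 13) and in 5 of 26 lysosomal windows (19.2%). The following 2 stretches hold the palindrome TCACGTGA, in capitals, on build GRCm38.p6. They are from a gene that rose (Atp6v1a, 2.170, chr16:44139354-44139421, minus strand) and a gene that fell (Ctsd, -1.30, chr7:142387889-142387956, minus strand).
Atp6v1a: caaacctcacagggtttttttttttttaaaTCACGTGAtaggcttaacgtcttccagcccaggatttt
Ctsd: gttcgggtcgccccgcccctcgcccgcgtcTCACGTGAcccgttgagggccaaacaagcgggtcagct
The same letters stood before genes of opposite net change. Tfe3 fell by 1.19 ± 0.05 and Tfeb by 0.51 ± 0.06. A match of letters is a description and not a binding site.

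Genes for cell fusion were led by Ocstamp and Dcstamp, membrane proteins without which precursors do not fuse. Of 13 genes, 11 passed the filter, 1 through 1 day alone, 8 rose and 3 fell. Dcstamp measured 2.87, 5.60 and 3.48 RPKM at day 0 and 413, 406 and 377 RPKM at day 6, and Ocstamp 0.581, 1.12 and 0.942 RPKM and 155, 167 and 164 RPKM. Among tetraspanins, Tspan7 rose from 0.137, 0.314 and 0.204 to 72.4, 70.7 and 76.0 RPKM and Cd9 by 1.13 ± 0.06, whereas Cd81 fell by 2.46 ± 0.08. Sirpa and Cd47, the receptor and ligand pair of myeloid self-recognition, fell by 0.26 and 0.59.

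Receptors moved in both directions. Of 16 listed genes, 15 passed the filter, 5 through 1 day alone, 8 rose and 7 fell, while 37.8% of all genes tested rose and 46.4% fell. Calcr, the calcitonin receptor and a late osteoclast marker, went from 0.111, 0.227 and 0.169 RPKM to 48.0, 49.5 and 50.5 RPKM. Oscar, an immunoglobulin-like receptor that signals through the adaptor FcR gamma, went from 0.498, 0.941 and 0.463 to 178, 186 and 188 RPKM, and Siglec15, a sialic acid receptor that pairs with DAP12, from 0.210, 0.191 and 0.320 to 65.3, 69.6 and 58.8 RPKM. Trem2, another partner of DAP12, fell from 489, 548 and 525 to 68.8, 75.2 and 76.0 RPKM. The adaptors themselves fell less: Fcer1g (FcR gamma) by 1.44 ± 0.08 and Tyrobp (DAP12) by 0.29 ± 0.09, a call that was lost without day 0 replicate 2 (adjusted p = 0.0513, limma). Tnfrsf11a, which encodes RANK, rose from 16.8, 14.98 and 14.2 to 48.7, 48.8 and 44.7 RPKM, the opposite direction to the M-CSF receptor.

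Below RANK, 21 of 22 signalling genes passed the filter, 9 rose and 9 fell, with a median of 0.00. The changes were small beside those of the effectors. Nfkbia, the inhibitor and target of NF-kB, rose from 67.0, 85.3 and 69.6 to 230.2, 226 and 243 RPKM, Nfkb2 rose by 1.30 ± 0.04 and Traf6, the main adaptor of RANK, by 0.91 ± 0.05. Plcg2, the phospholipase that leads to calcium release, had a net change of -0.73 ± 0.06 (adjusted p = 1.67e-09, limma).

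Transcription factors that promote osteoclasts rose in 11 cases and fell in 5 of 18 that passed the filter, with 20 listed and 1 passing through 1 day alone. Jdp2, an AP-1 family protein required for osteoclast formation in mice, rose most, from 6.95, 7.77 and 7.64 to 393, 398 and 409 RPKM (5.57 ± 0.05, adjusted p = 2.00e-21, limma). Nfatc1, the main osteoclast factor, rose from 9.60, 9.02 and 7.98 to 58.7, 60.3 and 57.5 RPKM, and Fosl2 from 10.5, 9.92 and 9.55 to 116, 116 and 118 RPKM. Ppargc1b, the coactivator of mitochondrial genes in osteoclasts, went from 0.426, 0.469 and 0.433 to 15.8, 15.9 and 15.2 RPKM. Mitf did not pass the test (14.7, 14.4 and 13.9 RPKM at day 0, 14.1, 13.4 and 12.97 RPKM at day 6, adjusted p = 0.149, limma), and Usf1 fell by 1.62 ± 0.06.

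Of the factors known to hold osteoclast formation back, 19 of 22 passed the filter, 3 through 1 day alone, 13 fell and 5 rose. Irf8, whose loss is known to increase osteoclasts, measured 61.1, 63.4 and 66.3 RPKM at day 0, 5.95, 5.47 and 4.96 RPKM at day 3 and 4.72, 6.09 and 5.93 RPKM at day 6. It was high in every day 0 library and low in every later one, a net change of -3.30 ± 0.08 (adjusted p = 8.48e-17, limma). Maf fell from 140.2, 138 and 137 to 17.4, 19.04 and 19.5 RPKM. Id3, an inhibitor of helix-loop-helix factors, fell from 161, 163 and 168 to 25.9, 28.8 and 27.2 RPKM. Those that rose were Rcan1 (7.62 to 64.7 RPKM), a calcineurin inhibitor known as a target of NFAT, Tnfaip3 (5.97 to 27.1 RPKM), a deubiquitinase known as a target of NF-kB, Maff, Nfatc2ip and Cyld. Prdm1, the repressor Blimp1 that silences Irf8 in osteoclast precursors, was listed with the activators and rose from 7.94, 7.88 and 7.41 to 28.8, 28.2 and 28.7 RPKM.

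**Figure D3:**
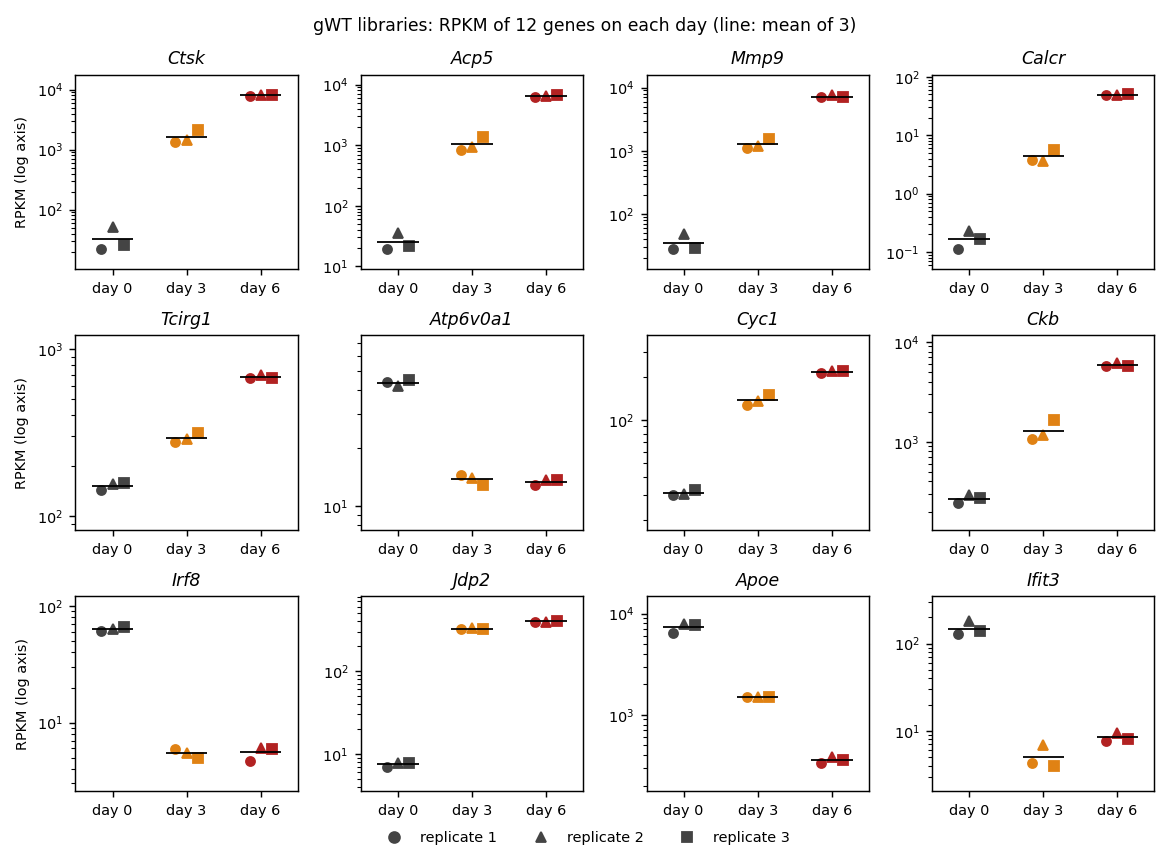
RPKM (log axis) of 12 genes in the 9 gWT libraries, 3 at each of days 0, 3 and 6, with a mark shape for each replicate and a line at the mean of 3. Ctsk, Acp5, Mmp9 and Calcr climb at both steps, Irf8 and Atp6v0a1 are low from day 3 on, Jdp2 is high from day 3 on, and Apoe falls at both steps.

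The cytoskeletal machinery of the sealing zone rose in part. Of 30 genes, 28 passed the filter, 1 through 1 day alone, 16 rose (12 of them at least 2-fold) and 9 fell, none by that much. Src, the tyrosine kinase without which osteoclasts form but do not resorb, went from 1.62, 1.92 and 1.63 to 113, 118 and 113 RPKM. Itgb3, the beta3 chain of the vitronectin receptor, rose from 5.85, 6.28 and 5.69 to 253, 270.2 and 228 RPKM and its alpha chain Itgav from 25.8, 20.4 and 20.4 to 172, 169 and 161 RPKM. The unconventional myosin gene Myo1d rose by 6.195 ± 0.10 and cortactin (Cttn) by 3.99 ± 0.10. The genes of 2 related small GTPases differed: Rac2 rose from a mean of 78.2 to 287 RPKM, while Rac1 fell from 197 to 131 RPKM.

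Signals that osteoclasts send to other bone cells mostly rose. Of 19 such genes, 16 passed the filter, 10 of them through 1 day alone, 12 rose and 4 fell. Sphk1, which makes sphingosine 1-phosphate, went from 0.200, 0.171 and 0.387 to 17.2, 18.9 and 17.04 RPKM, and Spns2, which exports it, from 0.318, 0.549 and 0.349 to 43.1, 44.4 and 43.7 RPKM. Pdgfb, a growth factor for vessels and stromal precursors, went from 14.1, 14.8 and 15.2 to 149.7, 155 and 146 RPKM, and the cytokine gene Lif from 0.0249, 0.0605 and 0.0379 to 5.78, 5.79 and 5.58 RPKM. Of these 4 genes, Sphk1, Spns2 and Lif passed the filter through day 6 alone, so that their groups had to differ, while Pdgfb was above 1 RPKM in every library of both days. Ctgf, a matricellular growth factor, was uneven at day 6, at 16.5, 7.54 and 2.89 RPKM, and its net change was 2.15 ± 0.37.

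That unevenness was shared by genes of connective tissue. Of 33 stromal and endothelial genes, 11 passed the filter, 8 of them through 1 day alone, 8 rose and 3 fell. Col1a1, a chain of type I collagen, measured 0.369, 0.404 and 0.827 RPKM at day 0 and 21.7, 9.55 and 3.92 RPKM at day 6, and Sparc, a collagen-binding matrix protein, 0.727, 1.15 and 1.06 RPKM and 21.4, 10.4 and 5.54 RPKM. Day 6 replicate 1 was highest and replicate 3 lowest for both, and the summed level of the 33 listed genes was 111, 58.3 and 36.4 RPKM in replicates 1, 2 and 3, against 16.4 to 22.2 RPKM at day 0. The osteoblast gene Bglap and the endothelial gene Emcn were listed at 0 in all day 0 libraries and reached at most 0.0551 and 0.0361 RPKM at day 6. Other listed genes of these cell types were not at 0. The endothelial gene Pecam1 went from 1.64 to 2.13 RPKM at day 0 to 0.145 to 0.166 RPKM at day 6. Kdr, also endothelial, went from 0.538 to 0.613 RPKM to 1.02 to 1.19 RPKM. The osteoblast gene Alpl went from 0.0244 to 0.0402 RPKM to 0.216 to 0.672 RPKM. Without day 6 replicate 1 the net change of Col1a1 was 2.24 instead of 2.80 and that of Ctgf 1.62 instead of 2.15, and both were still called. Thbs1, a thrombospondin that macrophages also make, ran in the same order, at 24.6, 15.8 and 9.42 RPKM at day 6, but far below its 149, 142 and 135 RPKM at day 0. Whether stromal cells took part in these values was not tested.

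The mitochondrial programme rose as a whole. All 70 listed genes of the respiratory chain passed the filter and all 70 rose, 62 at least 2-fold, with a median of 1.58; their share of the summed RPKM went from 1.61% to 1.72% at day 0 to 5.12% to 5.22% at day 6. Cyc1, a subunit of complex III, rose from 29.9, 30.3 and 32.1 to 212, 221 and 218 RPKM, and Cycs, the electron carrier cytochrome c, from 14.8, 18.01 and 16.5 to 117, 112 and 121 RPKM. The groups were far apart in both. The 19 listed genes of the citric acid cycle and pyruvate dehydrogenase all rose too, with a median of 1.87, led by Idh3a, the catalytic subunit of isocitrate dehydrogenase (7.32, 6.33 and 6.47 to 85.6, 83.0 and 84.9 RPKM). Of 17 fatty acid oxidation genes that passed the filter, 16 rose. The remaining one was Cpt1a, which admits long-chain fatty acids to mitochondria: it fell by 0.19 ± 0.07, a call lost without day 0 replicate 1 (adjusted p = 0.0987, limma), with all 36 libraries in the fit (0.0516) and with quantile scaling (0.0958).

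Promoter windows of the respiratory chain were searched for GCGCATGCG, the core of the site of NRF1, a known regulator of these genes. It lay in 8 of 57, against 384 of 8632 genes tested (4.45%), on either strand. The 2 stretches below, on build GRCm38.p6, show the NRF1 letters in capitals. They are from Cycs (chr6:50566592-50566660, minus strand) and Cox6a1, a subunit of complex IV that rose by 1.61 ± 0.10 (chr5:115349081-115349149, minus strand). Cycs holds 1 match, on the reverse strand, while in Cox6a1 overlapping matches on both strands form 1 longer run.
Cycs: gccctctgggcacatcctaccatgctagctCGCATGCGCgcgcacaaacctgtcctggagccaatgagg
Cox6a1: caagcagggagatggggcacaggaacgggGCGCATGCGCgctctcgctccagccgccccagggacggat

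Energy buffering by creatine changed in composition. Of 11 genes, 8 passed the filter, 1 through 1 day alone, 6 rose and 2 fell. The cytosolic kinase Ckb is described above; the mitochondrial kinase Ckmt1 was listed at 0, 0.0385 and 0.0193 RPKM at day 0 and at 9.83, 10.1 and 10.7 RPKM at day 6, and the creatine transporter Slc6a8 rose from 14.1, 13.97 and 14.1 to 117, 118 and 112 RPKM. Gatm and Gamt, the enzymes that make creatine, fell by 2.75 ± 0.07 and 0.48 ± 0.10. The kinases and the transporter rose, and the enzymes of synthesis fell.

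Glycolysis was mixed. Of 21 genes that passed the filter, 13 rose and 6 fell. Ldhb, the lactate dehydrogenase of oxidative tissues, rose from 14.2, 15.04 and 14.9 to 218, 228 and 226 RPKM, more than Ldha (156, 166 and 169 to 354, 363 and 348 RPKM). The hexokinases Hk2 and Hk3 and the regulatory kinases Pfkfb3 and Pfkfb4, which set the pace of the pathway, all fell, with net changes of -1.50, -1.598, -1.603 and -1.86.

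Iron genes moved in both directions. Of 15 that passed the filter, 2 of them through 1 day alone, 6 rose and 8 fell with a median of -0.76. These counts are near the shares over all genes tested, of which 37.8% rose and 46.4% fell. Under quantile scaling 7 rose and 7 fell, with a median of 0.10. Those that rose included the transferrin receptor Tfrc from 35.1, 35.6 and 31.2 to 316, 298 and 282 RPKM, the metalloreductase Steap4 from 0.121, 0.198 and 0.136 to 45.5, 44.1 and 47.7 RPKM and the importer Slc11a2 by 1.79 ± 0.05. The exporter ferroportin (Slc40a1) fell from 172, 183 and 170.3 to 24.1, 25.1 and 26.0 RPKM, and Hmox1, which frees iron from haem, fell by 1.85 ± 0.08. Other transporters fell too, among them the phagosomal Slc11a1 (-2.86 ± 0.07) and the mitochondrial importer Slc25a37 (-1.90 ± 0.06).

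Genes of proliferation took a route that the end points alone do not show. Of 38 DNA replication genes that passed the filter (of 40), 27 fell and 5 rose between day 0 and day 6, with a median of -0.46, and of 38 mitosis genes 36 fell and 1 rose, with a median of -1.08. The median change of the replication list was 1.59 from day 0 to day 3 and -2.000 from day 3 to day 6, and that of the mitosis list 0.93 and -2.18. These steps share the day 3 libraries with each other and the end libraries with the net change, so they are values side by side and not separate evidence. Mcm6, a subunit of the replicative helicase, measured 20.3, 15.3 and 16.9 RPKM at day 0, 82.1, 80.2 and 74.8 RPKM at day 3 and 20.1, 18.9 and 17.9 RPKM at day 6. Its net change of 0.12 did not pass the test (adjusted p = 0.163, limma), although the day 3 libraries lay far above the rest. The mitotic kinase Aurkb ran from a mean of 19.7 RPKM through 37.2 to 6.23. The cell cycle inhibitor Cdkn2b went up throughout (0.347, 1.74 and 12.6 RPKM), while the inhibitor Cdkn1a fell (134, 89.7 and 35.0 RPKM).

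The median of the cell cycle regulators had the same outline, at 0.76 to day 3 and -1.06 after it, though single members differed. Of 26 genes, 25 passed the filter, 2 through 1 day alone, 17 fell and 7 rose. E2f2, an activating E2F, fell at both steps (7.79, 5.21 and 0.984 RPKM at days 0, 3 and 6), as did Ccnd3 and Rb1. E2f8 rose to day 3 and then fell (5.46, 14.3 and 1.71 RPKM). Of 12 serine and one-carbon genes that passed the filter, which feed nucleotide synthesis, 7 rose and 4 fell, with medians of 1.81 to day 3 and -1.34 after it. Of 22 cholesterol synthesis genes that passed the filter, 14 fell and 4 rose, with a median of -0.39. Hmgcs1, an enzyme of that pathway that most cells use, was listed at 0 in every library here, so a 0 in this table can be a gene that was not measured.

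Promoter windows of the replication genes were searched for TTTNNCGC, the core of sites for E2F, the factor family that drives entry into DNA synthesis. It lay in 13 of 30 (43.3%), against 862 of 8632 genes tested (9.99%). In the 3 stretches below, on build GRCm38.p6, it is in capitals and lies upstream of the start of Mcm6 (chr1:128359715-128359782, minus strand), Mcm5 (chr8:75109330-75109397, plus strand) and Uhrf1 (chr17:56303251-56303318, plus strand), each of which was highest at day 3.
Mcm6: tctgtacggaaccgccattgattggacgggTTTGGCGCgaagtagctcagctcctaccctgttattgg
Mcm5: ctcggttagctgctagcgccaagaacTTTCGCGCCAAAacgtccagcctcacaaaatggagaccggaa
Uhrf1: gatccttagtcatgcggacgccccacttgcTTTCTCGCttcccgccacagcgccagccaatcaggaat
Mcm5, another helicase subunit, measured a mean of 14.6 RPKM at day 0, 69.3 at day 3 and 9.70 at day 6. Uhrf1, which carries DNA methylation through replication, measured 7.92, 57.2 and 6.01 RPKM. Of the 31 mitosis genes with a window, 2 (6.45%) held the E2F letters.

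By the same rule for all genes, 203 genes rose by at least 1.5 (log2) to day 3 and came back by at least 1.5 by day 6, and 23 did the reverse. Ccnd1, which encodes cyclin D1, measured 9.79, 9.03 and 10.5 RPKM at day 0, 121, 115 and 112 RPKM at day 3 and 8.60, 8.62 and 6.79 RPKM at day 6. The amino acid transporter Slc7a5 ran from 1.70 RPKM through 25.8 to 2.26, and the growth factor Pgf from 0.0670 through 41.7 to 4.71. Mybl2, Hmga1b and Uhrf1 were the others of the 6 with the largest steps. In the opposite direction, the circadian factor Dbp went from 17.6 RPKM through 1.70 to 14.8, the polyamine enzyme Sat1 from 430.5 through 82.3 to 373, and the mitophagy kinase Pink1 from 70.6 through 7.28 to 32.6. Several of these genes had a net change near 0.

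**Figure D4:**
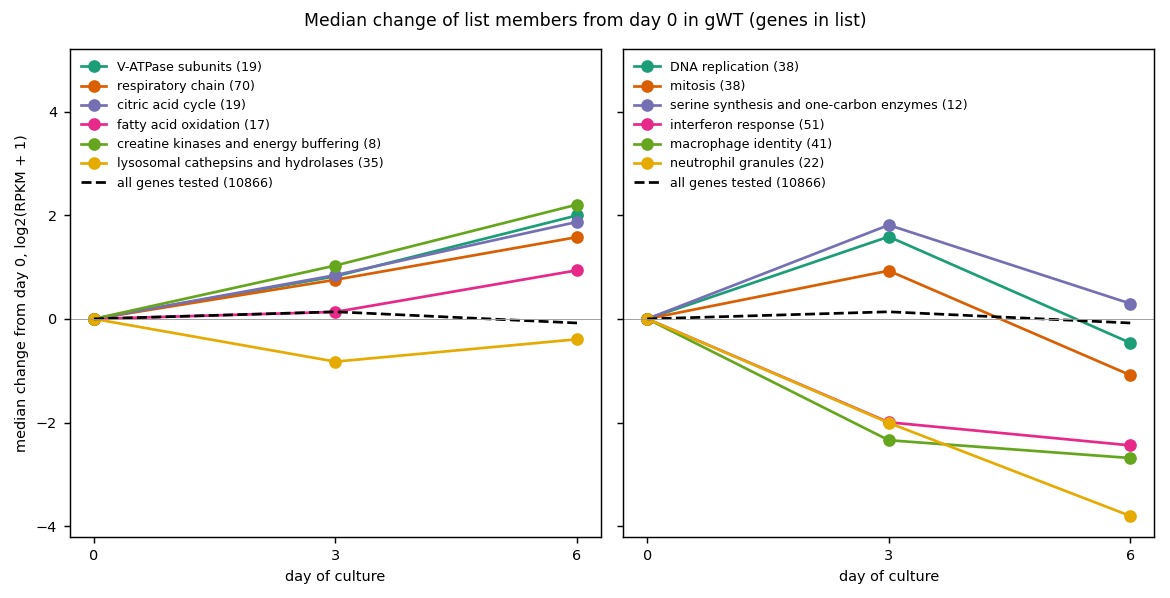
Median change from day 0 of the genes of 12 lists in gWT at days 3 and 6, on the log2(RPKM + 1) scale (genes in brackets; dashed line, all genes tested). The energy and proton pump lists climb through both steps, the replication, mitosis and one-carbon lists rise to day 3 and then drop, and the interferon and macrophage lists have most of their fall by day 3.

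The interferon response list fell as a whole. All 51 listed genes passed the filter, 3 of them through 1 day alone, and all 51 fell, 50 at least 2-fold, with a median of -2.44 against -0.08 over all genes tested. Ifit3, an antiviral protein, measured 128, 179.5 and 138 RPKM at day 0 and 7.69, 9.57 and 8.18 RPKM at day 6, where its near-identical copy Ifit3b may share reads. Irf7, the factor that amplifies the response, fell from 198, 275 and 222 to 13.9, 18.8 and 14.7 RPKM, and Mx1, a GTPase that blocks influenza viruses, from 30.01, 36.6 and 30.3 to 1.25, 1.64 and 1.23 RPKM. In all 3 genes day 0 replicate 2 was highest and no library of day 6 reached those of day 0. Stat2, which carries the signal to the nucleus, fell by 2.97 ± 0.07. The member that changed least was Gbp7 (-0.89 ± 0.07), a guanylate-binding protein.

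Interferon-stimulated genes are known by the promoter element ISRE, searched for here as GAAANNGAA on both strands. It lay in the window of 24 of 38 interferon genes with a window (63.2%), against 771 of 8632 genes tested (8.93%), and in 188 of 1196 genes that fell at least 2-fold (15.7%) and 87 of 1039 that rose at least 2-fold (8.37%). The 4 stretches below, on build GRCm38.p6, are examples from genes of the list that fell at least 2-fold and hold it before the start, with matches on the reverse strand in capitals: Ifit3 (chr19:34583397-34583465, plus strand), Rsad2 (chr12:26456533-26456601, minus strand), Ifit1 (chr19:34640775-34640843, plus strand) and Stat2 (chr10:128270248-128270315, plus strand).
Ifit3: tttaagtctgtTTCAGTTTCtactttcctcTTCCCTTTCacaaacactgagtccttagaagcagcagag
Rsad2: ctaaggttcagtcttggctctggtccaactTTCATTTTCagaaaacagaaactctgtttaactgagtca
Ifit1: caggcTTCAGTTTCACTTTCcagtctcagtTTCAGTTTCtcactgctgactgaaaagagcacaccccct
Stat2: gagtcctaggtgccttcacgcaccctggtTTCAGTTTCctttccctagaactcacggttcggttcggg
Rsad2, the antiviral enzyme viperin, fell from 46.4, 63.3 and 48.0 to 3.54, 3.25 and 4.02 RPKM, and Ifit1 from 45.2, 60.8 and 48.3 to 5.38, 5.29 and 5.43 RPKM. The AP-1 letters TGANTCA, whose factors RANKL activates, lay in 94 of the 1039 genes that rose at least 2-fold (9.05%), in 103 of the 1196 that fell by as much (8.61%) and in 532 of 8632 (6.16%). They lay in 11 of the 38 interferon genes (28.9%), all of which fell.

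Antigen presentation fell with the interferon genes. Of 14 MHC class II genes, 11 passed the filter, 2 through 1 day alone, and all 11 fell, with a median of -1.65; the invariant chain Cd74 went from 369.9, 453 and 346 to 100.4, 116 and 99.6 RPKM. Of 18 MHC class I genes that passed the filter (of 21), 2 through 1 day alone, 16 fell and 2 rose. B2m, the shared light chain, fell from 2194, 2781 and 2396 to 916, 964 and 977 RPKM. The 2 that rose were Tap2, a subunit of the peptide transporter (37.1, 43.4 and 37.5 to 74.4, 77.9 and 71.7 RPKM), and H2-M2, a non-classical gene (0.318, 0.431 and 0.304 to 8.25, 7.41 and 8.72 RPKM). Genes of the H2 region are close copies, so reads may have been assigned among them with error.

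Sensors of microbes all fell. Each of the 26 pattern recognition genes passed the filter, 2 through 1 day alone, and fell, 20 at least 2-fold, with a median of -1.76. The endosomal nucleic acid receptors fell most: Tlr8 went from 76.9, 66.8 and 66.5 to 7.21, 7.52 and 7.43 RPKM, Tlr7 from 59.0, 51.2 and 53.8 to 6.47, 5.96 and 7.10 RPKM and Tlr9 from 14.8, 13.8 and 11.6 to 1.04, 1.23 and 0.900 RPKM. Tlr4, the receptor for bacterial lipopolysaccharide, fell by 1.32 ± 0.06. The complement and opsonin genes fell in 12 of 15 cases (3 through 1 day alone) and rose in 2. C1qb, a chain of the first complement component, fell from 1375, 1622 and 1597 to 154, 174 and 169 RPKM. Mfge8, a bridge protein in the uptake of dying cells, rose from 21.5, 24.8 and 26.5 to 69.0, 69.8 and 72.6 RPKM, and Cd55, a complement inhibitor, by 0.85 ± 0.06.

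Of 41 macrophage genes that passed the filter (of 44), 2 through 1 day alone, 38 fell and 2 rose, with a median of -2.69. Adgre1, which encodes F4/80, fell from 502, 483 and 458 to 75.1, 82.4 and 77.6 RPKM, and Mertk, a receptor for dying cells, from 36.4, 31.8 and 33.8 to 4.14, 4.52 and 4.66 RPKM. Those that rose were Cd68, a lysosomal glycoprotein that osteoclasts share (610.1 to 978 RPKM), and Tmem119 (2.29 to 2.92 RPKM). Lgals3, galectin 3, was not called (1110.2 against 1057 RPKM, adjusted p = 0.430, limma). Of 24 monocyte genes tested, 6 through 1 day alone, 22 fell and 2 rose; Ly6c2, a surface marker of inflammatory monocytes, went from 101, 130.4 and 87.4 to 3.06, 3.02 and 2.69 RPKM. The rises were those of S100a4 (539.9 to 743 RPKM) and of the matrix gene Fn1, whose day 6 values of 14.4, 7.02 and 3.11 RPKM ran in the order of the collagen genes.

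Chemokine receptors were exchanged. Of 21 chemokine and receptor genes that passed the filter, 4 through 1 day alone, 18 fell and 3 rose. Ccr2 and Cx3cr1, receptors of monocytes and tissue macrophages, fell, with net changes of -5.65 and -3.75. Ccr1 rose from 25.2, 26.1 and 23.1 to 181, 172 and 185 RPKM, Ccr3 from 0.909, 1.30 and 1.27 to 13.9, 13.5 and 14.02 RPKM, and Ccl9, a ligand of Ccr1, from 151, 171 and 165 to 462, 443 and 470.0 RPKM. The ligand and its receptor both rose.

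Markers of other blood cells were mostly lower at day 6. Of the neutrophil genes that fell, 7 had passed the filter through 1 day alone; the list had a median of -3.80, and S100a9, an abundant calcium-binding protein of neutrophils and monocytes, went from 676, 904 and 732 to 33.1, 37.2 and 39.7 RPKM. Of 28 lymphocyte genes listed with values, 6 passed the filter, 3 through 1 day alone, and all 6 fell. The T cell genes Cd3d, Cd3e and Cd3g, which encode CD3 chains, stayed below the filter. Cd79b, a signalling chain of the B cell receptor complex, fell from 6.26, 8.28 and 7.03 to 0.184, 0.150 and 0.260 RPKM. Of 19 erythroid and megakaryocyte genes 7 passed, 3 through 1 day alone, 6 fell and 1 rose; Pf4, a platelet chemokine that cultured macrophages also express, fell from 1077, 1114 and 1111 to 76.9, 88.4 and 80.6 RPKM. Of 21 genes of mast cells, basophils and eosinophils 6 passed, 5 through 1 day alone, and all 6 fell. The summed level of the 21 genes was 35.8 to 44.6 RPKM at day 0 and 3.22 to 4.03 RPKM at day 6. Prg2 of this list went from a mean of 24.2 to 1.86 RPKM. Hdc lay at 2.72 to 3.83 RPKM at day 0 and at 0.0922 to 0.275 RPKM at day 6. By contrast, the tryptases Tpsab1 and Tpsb2 and the chymase Cma1 were listed at 0 in the day 0 means. Of 20 dendritic cell genes 14 passed, 7 through 1 day alone, 10 fell and 3 rose; the summed level was 1408 to 1755 RPKM at day 0 and 1398 to 1433 RPKM at day 6, most of it from Cst3, cystatin C (1052 and 1325 RPKM), which many cells make. Of 16 progenitor genes 7 passed, 3 through 1 day alone, and all 7 fell, among them Cd34 (7.73 to 0.646 RPKM). Of 5 sex-linked genes, the Y-linked Kdm5d and Uty fell by 0.53 and 0.29, Ddx3y and Eif2s3y were not called, with values near 0 that turned positive under quantile scaling, and Xist was below the filter. The part of these cells in the falls of the interferon, monocyte and macrophage lists was not tested.

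The net change was also measured in the libraries labelled gKO, and the difference between the genotypes was tested as gKO net change minus gWT net change. Irf8 RNA measured 59.0, 56.9 and 56.3 RPKM at day 0 and 4.71, 5.22 and 4.98 RPKM at day 6 in these libraries, close to the gWT values, so the RNA of the whole gene does not tell the genotypes apart; which stretch was deleted is not given in the sources used here. Its net change differed by 0.01 ± 0.11 (adjusted p = 0.933, limma). Of all genes tested, the difference was called above 0 for 2908 (26.8%) and below 0 for 5150 (47.4%), with a median of -0.18 that moved to -0.03 with quantile scaling, and the split then became 3718 and 4069.

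The net changes of osteoclast effectors were unequal between the genotypes for some genes and not called different for others. The difference was called above 0 for 5 of 8 bone-degrading, 7 of 11 acid secretion and 10 of 15 receptor genes. It was 1.26 ± 0.17 for Ckb, 1.01 ± 0.09 for Clcn7 and 0.95 ± 0.17 for Atp6v0d2, but -1.09 ± 0.22 for Mmp9, all called by limma. Ctsk had a net change of 8.43 in the libraries labelled gKO, a difference of 0.44 ± 0.34 (adjusted p = 0.250, limma), and Calcr one of 5.54, a difference of 0.12 ± 0.13 (adjusted p = 0.428); a p above the threshold does not show that they were equal. Mmp14 rose more in the libraries labelled gKO (difference 2.19 ± 0.16) and Jdp2 less (-1.91 ± 0.07). Among lists, the difference was below 0 for 38 of 38 replication genes, 37 of 38 mitosis genes and 47 of 70 respiratory chain genes. It was above 0 for 34 of 35 lysosomal genes and 48 of 51 interferon genes. The median net change of the lysosomal list was 0.53 in the libraries labelled gKO and -0.39 in gWT, and that of the interferon list -0.84 and -2.44. Ifit3, for which gWT fell from a mean of 149 to 8.48 RPKM, stood at 0.714, 0.550 and 0.386 RPKM at day 0 and 0.179, 0.405 and 0.431 RPKM at day 6 in the libraries labelled gKO, and so was low on both days there.

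**Figure D5:**
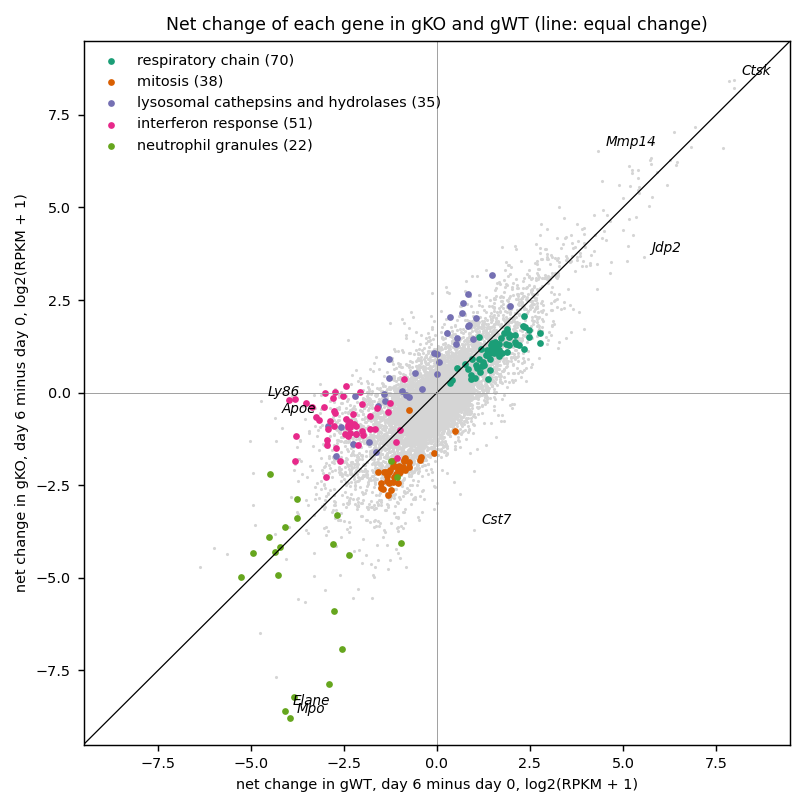
Net change of each of the 10866 genes in gWT (horizontal axis) and in the libraries labelled gKO (vertical axis), both on the log2(RPKM + 1) scale, with 5 lists in colour and a line of equal change. Ctsk lies near the line, most lysosomal and interferon genes lie above it, and most mitosis genes and several neutrophil genes, Mpo and Elane among them, lie below it.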

How the data were processed

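RNA-seq libraries of mouse BMM cultures were processed by the authors, who deposited RPKM values per gene. Per the file headers, reads were mapped to mm9 with TopHat, RPKM was computed with Partek, and 3 data sets were combined into 1 table. The submitters' processing notes name CASAVA 1.8.4, bcl2fastq 2.17.1 and TopHat2 2.1.0. Alignment counts per library are those of the sample sheet deposited by the authors. The sources used here give neither the gene annotation and strand setting nor the handling of reads with several matching genes, so close copies and antisense partners may share reads. Without counts per gene the counting error of low values is unknown. The authors' per-day tables hold no comparison between days and were not used.

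From RPKM, log2(RPKM + 1) was computed for the genes kept. A limma model (version 3.58.1, R 4.3.3, trend and robust moderation) of 6 group means was fitted to the 18 g libraries, and p-values were adjusted over 10866 genes by the Benjamini-Hochberg method. Errors are limma standard errors; the median residual SD was 0.0767. Simulated data kept these spreads, but day 6 means were set to day 0 means except in gWT for 50 genes per fold. There the day 6 against day 0 contrast called 23 at 1.2-fold, 48 at 1.5-fold and 50 at 2-fold, and 4 of 10666 unchanged genes. Far fewer genes changed there than were called in the real data, which shifts the adjusted threshold. These numbers therefore do not carry over to the real contrast. Members, 38 gene lists and motifs were chosen with earlier results of these data known, and lists are described, not tested. Named genes were the 15 largest rises and falls among called genes whose groups do not overlap and whose higher mean is 5 RPKM or more, the 10 most abundant on each day, 6 per list by size of change and other list members as examples chosen with values seen, the 6 largest of each reversed route, and the 6 highest and lowest differences between genotypes, leaving out predicted genes, small RNAs, mitochondrial and sex-linked genes. Some genes that this rule names are not reported here. Promoters are RefSeq windows of GRCm38.p6, matched by symbol for 8632 genes; a gene counted if any window held the letters on either strand. Matches of 2 motifs overlapped in 8 windows each for ISRE with E2F and E2F with NRF1, 2 for AP-1 with CLEAR and 0 for other pairs. Printed stretches were chosen after values were seen. Alternatives were another pseudocount (0.1), filter, set of libraries, quantile scaling, no moderation trend, a replicate block and leaving out each library. Python 3.11.15, pandas 2.3.3, numpy 2.4.6 and matplotlib 3.10.9 made tables and figures.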

Additional observations from a re-analysis of the deposited data

Results flagged for a closer look

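The net change of 12 genes differed between the libraries labelled gKO and gWT by the tested difference, the 6 highest and the 6 lowest by rule, all called by limma. The highest was that of Ly86, the MD-1 partner of the receptor CD180, at 4.50 ± 0.16 (adjusted p = 3.27e-13, limma): gWT fell from 223, 283 and 260.0 to 7.91, 8.41 and 9.42 RPKM, and the libraries labelled gKO were near 0 on both days, at 0.338, 0.442 and 0.401 RPKM and 0.371, 0.209 and 0 RPKM. Ifit3b (3.83), Ifit3 (3.76), Ms4a4c (3.73) and Apoe (3.67) also fell in gWT and changed less in the libraries labelled gKO, where Apoe was already at 232, 284 and 268 RPKM at day 0. Aif1, an actin-binding protein of macrophages, had a difference of 3.81, with a net change of 1.42 in the libraries labelled gKO and -2.40 in gWT.

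The lowest differences were those of the azurophil granule genes Ctsg (-4.96), Mpo (-4.83), Elane (-4.51) and Prtn3 (-4.39), of Cst7 (-4.71), an inhibitor of cysteine proteases, and of Ms4a3 (-4.38), a gene of granulocyte and monocyte progenitors. Mpo, myeloperoxidase, measured 1674, 1728 and 1656 RPKM at day 0 and 3.21, 2.98 and 2.27 RPKM at day 6 in the libraries labelled gKO, against 48.4, 52.5 and 41.0 and 2.03, 2.47 and 1.796 RPKM in gWT. The genotypes were thus far apart at day 0 and close at day 6. Cst7 rose in gWT, from 1.76, 2.19 and 1.77 to 4.72, 4.25 and 5.59 RPKM, and fell in the libraries labelled gKO, from 51.3, 56.5 and 52.6 to 3.05, 3.13 and 3.37 RPKM. With 3 libraries a group, no test for an outlying library was run.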

How the results depend on the processing

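The count of genes called between gWT day 6 and day 0 was 9151, between 8927 and 9036 when a library of either group was left out, and between 9009 and 11874 under the other alternatives, the highest without a filter on low values. The counts of the difference between genotypes, of the gKO net change and of both gWT steps stayed within 1.5 times of their main values in every alternative run. Quantile scaling moved the share of higher calls from 36.1% to 47.7% for the difference, from 35.7% to 47.7% for the gKO net change and from 37.3% to 50.5% for day 6 against day 3 in gWT. With the replicate number as a block the net change in gWT gave 9266 calls. Deviations of same-numbered day 0 and day 6 libraries correlated at 0.116, -0.05 and 0.06 for gWT replicates 1, 2 and 3 and at -0.19, 0.589 and 0.437 for those labelled gKO. Both libraries correlated best with each other for replicate 1 of gWT and replicate 2 of gKO. Not every pair exceeded 0.1 in either genotype, so the numbers were not taken to pair the libraries, and the block has no bearing on the strength of an effect.

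Of 4608 values of named genes under alternatives 4578 kept direction and call; 17 lost the call, 5 gained it and 8 changed sign. The sign changed with quantile scaling for Ftl1 (0.36), Eef1a1 (0.39), Trp53inp1 (0.0183), Ddx3y (0.0136) and Eif2s3y (0.00896). When libraries were left out Ddx3y ranged from -0.0868 to 0.00801, the latter without day 0 replicate 1, and Trp53inp1 from -0.102 to 0.0167, above 0 without day 0 replicate 1 and without day 6 replicate 2; apart from Ftl1, none of these genes passed the test with all libraries and no scaling. Calls of Dbp, Sat1, Cd4, Cpt1a and Tyrobp were lost in at least 1 alternative. The cause of these shifts was not tested. RPKM without counts limits what can be said of genes near 1 RPKM, and the pseudocount compresses them.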

Other observations

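Classes of the annotation that the authors placed beside their RPKM values were counted by how many of their genes moved at least 2-fold. Of all genes tested, 12.4% rose and 14.2% fell by that much. Among 157 transmembrane receptors tested 29 rose (18.5%) and 65 fell (41.4%) at least 2-fold, and among 88 G-protein coupled receptors 17 rose (19.3%) and 49 fell (55.7%), with a median of -1.08. Among 27 growth factor genes 10 rose (37.0%) and 6 fell (22.2%) by that much, and among 874 transcription regulators 57 rose and 127 fell. Of the 5 locations named there, the nucleus had the lowest shares in both directions, with 167 of 2738 rising (6.10%) and 271 falling (9.90%), against 206 (19.1%) and 316 (29.2%) of 1081 plasma membrane genes. These classes were looked at after the values were seen and were not tested against each other.

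At day 6, 25 genes at a mean level of 1 RPKM or more dropped by at least 1.5-fold from replicate 1 to 2 and again from 2 to 3, and 1 gene ran the other way; replicates have no order, and the numbers only name the libraries. Beside Col1a1 and Sparc they included Acta2, smooth muscle actin, at 25.3, 14.6 and 5.31 RPKM, Timp1, an inhibitor of metalloproteinases, at 13.4, 6.76 and 2.65 RPKM, and Csf1, which encodes M-CSF itself, at 4.43, 2.63 and 1.26 RPKM. At day 0, Csf1 measured 2.01, 2.62 and 2.51 RPKM. At day 0, 31 genes were at least 1.5-fold higher in replicate 2 than in both other libraries, and 4 of the 9 osteoclast markers were among them; the corresponding numbers of markers in replicates 1 and 3 were 0 and 0.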
